A study of Mus musculus with 128 samples.

Results

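Described here are 10 genes of proliferating cells and immature neurons: Mki67, Top2a, Eomes, Neurod1, Dcx, Sox11, Sox4, Igfbpl1, Draxin and Stmn1. They were listed by name and not by a threshold on measured values, with earlier results of these data known, out of 17582 genes tested in the series. All 10 passed the filter on low counts. The question was how their RNA changed from 4 to 8 months in the hippocampus against the cortex, in WT and in Trem2 KO mice.

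RNA came from the left hippocampus and cortex of male mice on a C57BL/6 background, which were WT or homozygous for the Trem2 KO allele Trem2tm1(KOMP)Vlcg. In this allele a LacZ cassette stands in for part of Trem2 in all cells of the body, and no group received a treatment. Each combination of tissue, genotype and age (4 or 8 months) held 8 samples, 64 in all, with 2 technical libraries of polyadenylated RNA per sample that were summed here. Both tissues of each brain were taken, but no label names the mouse, so p-values measure the spread between these samples and treat the tissues as independent. The published description counts fewer mice than the sample numbers within a tissue, unless its count is per age, so how many mice stand behind each group is not settled.

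In the adult mouse brain new neurons arise mainly from stem cells of the dentate gyrus in the hippocampus and of the subventricular zone beside the lateral ventricle, whose neuroblasts migrate to the olfactory bulb. Dividing progenitors express Mki67 and Top2a. In the dentate lineage they pass through a stage with the transcription factor Eomes (Tbr2) and then with Neurod1, and young neurons carry the microtubule protein doublecortin (Dcx) and the SoxC transcription factors Sox11 and Sox4. New neurons are known to become fewer as rodents age. Several of these genes are also expressed by mature cells outside the lineage.

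The 64 samples held between 29187333 and 70013620 counts (median 43650030). Trem2 was lower in every KO sample than in every WT sample of the same tissue and age, with log2 differences between -1.28 and -0.44. These values sum coding and non-coding transcripts, and -0.44 was that of hippocampus at 4 months. The published description reports that the coding transcripts were silenced in KO. It reports more of a non-coding transcript with a retained intron in KO, most of all in hippocampus at 4 months. Treml1, a neighbouring gene, lay between 23.6 and 34.4 CPM (counts relative to the library total, scaled by the TMM method) in KO samples and at most at 0.380 CPM in WT samples, which limits this allele as a model of the loss of Trem2 alone. The dentate marker separated the tissues as labelled: Prox1, which marks granule neurons of the dentate gyrus, lay between 64.8 and 117 CPM in hippocampus and between 14.1 and 23.4 CPM in cortex. Within the first and within the second libraries, the number after the sample in the library titles falls into separate ranges for 4 and 8 months. Age and whatever that number marks therefore cannot be told apart. Sample 8 of the hippocampus WT 4 months group stood apart from the rest. Its long-transcript index, the mean log2 CPM of genes with long transcripts minus that of genes with short ones, was 0.55, whereas the other 63 samples lay between 0.92 and 1.51. Values of members that moved most without this sample are given with and without it, and the gene lists include it.

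Levels of different members can be compared per transcript length, in TPM, which divides counts by length and scales each sample to the same sum. Stmn1, which encodes the microtubule regulator stathmin, was the most abundant, with a median of 585 TPM in hippocampus and 1405 TPM in cortex. Neurod1 (15.7 TPM in hippocampus and 10.1 TPM in cortex), Sox4 (12.2 and 14.6 TPM), Dcx (6.46 and 11.2 TPM), Sox11 (5.71 and 5.82 TPM) and Top2a (3.55 and 3.24 TPM) followed. Igfbpl1 (1.92 and 1.20 TPM), Eomes (0.74 and 2.03 TPM), Mki67 (0.62 and 0.32 TPM) and Draxin (0.30 and 0.23 TPM) were scarce. The scarce genes rest on few reads: Eomes had between 2 and 458 counts per sample, Draxin between 7 and 90, Igfbpl1 between 13 and 260 and Mki67 between 41 and 195. Of the Top2a counts 53.71% were assigned to a non-coding processed transcript and 33.96% to the coding transcript Top2a-201, so Top2a values are only partly those of the topoisomerase messenger RNA.

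Sox11, Sox4 and Draxin are the members whose RNA was lower at 8 than at 4 months in WT animals by edgeR's quasi-likelihood test over all genes (adjusted p of 0.01 or less), and the 250 bases before their transcription starts are shown for that reason. The sequences are those of RefSeq on GRCm38.p6, where 8 of the 10 members were matched (Igfbpl1 and Stmn1 had no entry). All of these genes lie on the minus strand, and their windows are chr12:27342719-27342968 for Sox11, chr13:28953700-28953949 for Sox4 and chr4:148130699-148130948 for Draxin. Capitals mark each match to the E-box CANNTG, the letters bound by basic helix-loop-helix proteins such as Neurod1. The motif reads the same on both strands.
Sox11: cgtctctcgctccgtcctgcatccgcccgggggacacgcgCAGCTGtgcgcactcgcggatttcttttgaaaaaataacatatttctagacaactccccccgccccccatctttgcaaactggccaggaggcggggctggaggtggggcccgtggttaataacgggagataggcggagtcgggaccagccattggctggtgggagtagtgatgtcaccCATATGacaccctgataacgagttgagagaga
Sox4: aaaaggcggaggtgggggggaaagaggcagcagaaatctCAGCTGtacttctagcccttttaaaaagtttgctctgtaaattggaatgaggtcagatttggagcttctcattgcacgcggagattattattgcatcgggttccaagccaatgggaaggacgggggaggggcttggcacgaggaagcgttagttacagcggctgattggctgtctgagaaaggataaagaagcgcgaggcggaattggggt
Draxin: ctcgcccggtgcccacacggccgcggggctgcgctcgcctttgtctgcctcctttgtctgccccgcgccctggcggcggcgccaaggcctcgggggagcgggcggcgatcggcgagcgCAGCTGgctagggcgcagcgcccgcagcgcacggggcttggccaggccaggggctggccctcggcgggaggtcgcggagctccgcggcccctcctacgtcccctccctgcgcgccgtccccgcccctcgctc
The Sox11 window held 2 E-boxes, and the windows of Sox4 and Draxin held 1 each. An E-box occurred in 66.2% of the 32851 mouse promoter windows of this length, and 5 of the 8 matched members had one. One match in each of these windows read CAGCTG, which 13% of all windows contained. The CCAAT box (CCAAT or ATTGG) was present 1 time in the Sox11 window, 4 times in the Sox4 window and not in that of Draxin, against 33.8% of all windows with at least 1. These matches describe the letters of the windows and not a site or a cause.

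**Figure D1:**
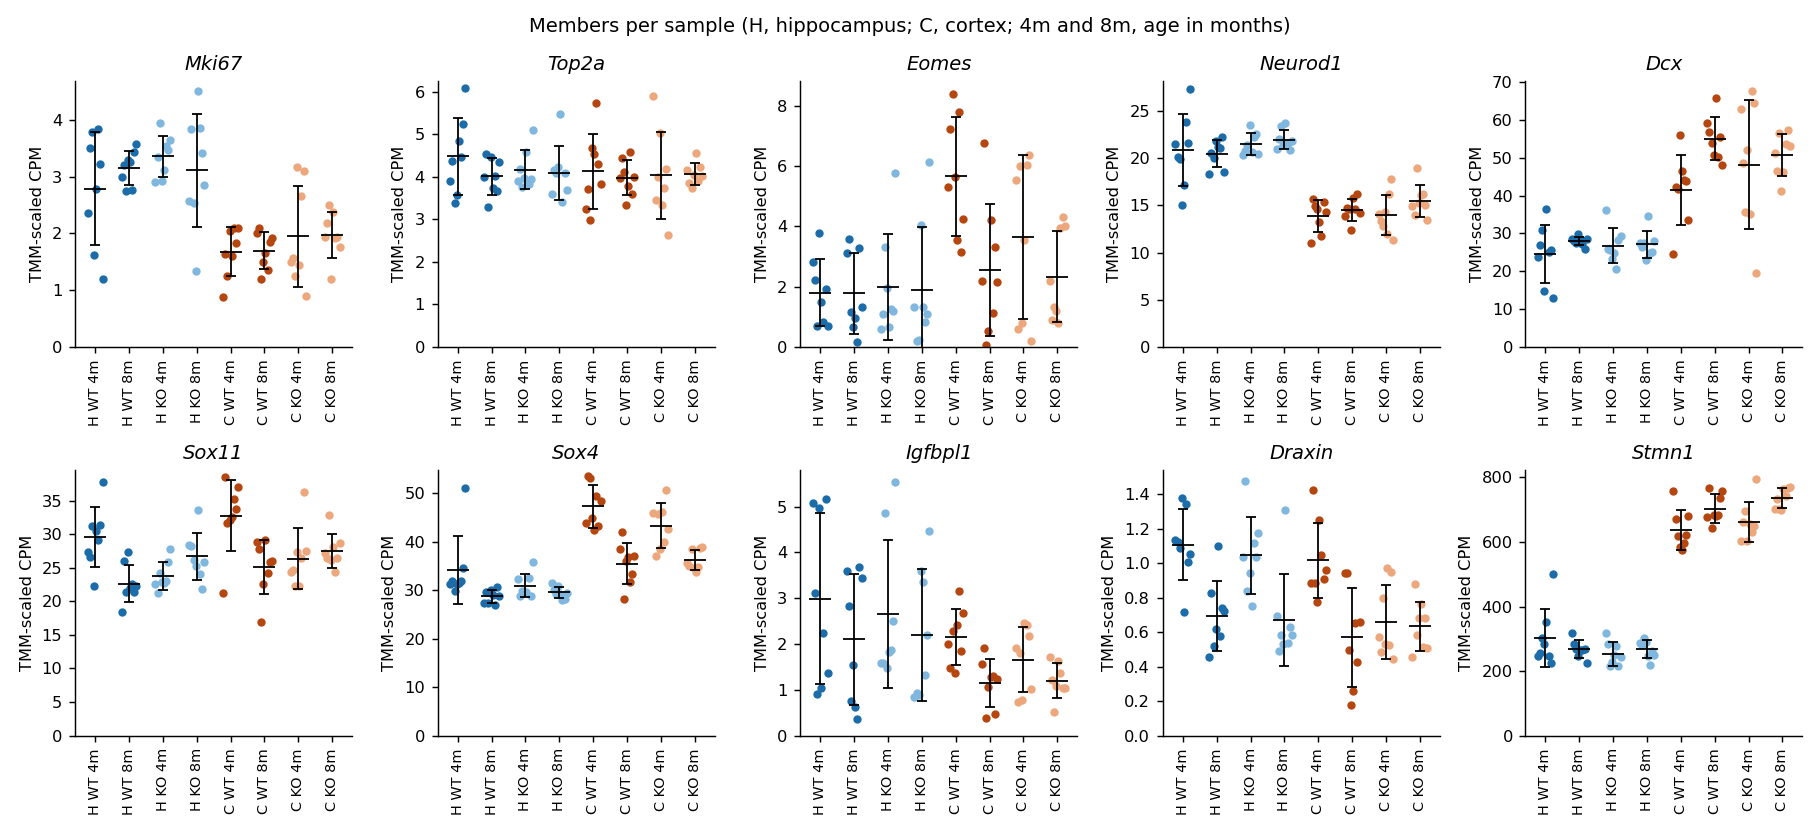
Level in TMM-scaled CPM (vertical axes starting at 0) of each member in the 64 samples. Each point is 1 sample, horizontal bars are group means and vertical bars 1 SD (n = 8, cut at 0), with hippocampus (H) in blue and cortex (C) in orange. Sox4 in cortex WT shows the 8 months samples, at 28.3 to 42.0 CPM, below the 4 months samples, at 42.4 to 53.5 CPM.

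The markers of dividing cells did not pass the test for a change with age in any of the 4 combinations of tissue and genotype. Mki67 encodes the proliferation antigen Ki-67. In hippocampus WT samples it ranged from 1.20 to 3.83 CPM at 4 months (median 3.00) and from 2.74 to 3.57 CPM at 8 months (median 3.23). The older samples lay inside the range of the younger ones, and the log2 fold change was 0.18 (95% interval -0.23 to 0.58, edgeR adjusted p = 0.608). In hippocampus KO samples the range was 2.91 to 3.94 CPM at 4 months (median 3.40) and 1.33 to 4.51 CPM at 8 months (median 3.13), with a log2 fold change of -0.11 (-0.52 to 0.29). The cortex held less Mki67, with 0.89 to 3.18 CPM at 4 months and 1.19 to 2.50 CPM at 8 months over both genotypes. Its log2 fold change there was 0.01 in WT and 0.02 in KO. Top2a encodes topoisomerase II alpha, which untangles DNA in dividing cells. It ranged from 3.38 to 6.08 CPM at 4 months (median 4.42) and from 3.29 to 4.53 CPM at 8 months (median 4.01) in hippocampus WT, with a log2 fold change of -0.16 (-0.39 to 0.07, adjusted p = 0.379 by edgeR). The other Top2a changes were -0.03 in hippocampus KO, -0.05 in cortex WT and 0.01 in cortex KO. With coding transcripts only, the Top2a changes were -0.35 in hippocampus WT (adjusted p = 0.348 by edgeR), -0.11 in hippocampus KO, -0.37 in cortex WT (adjusted p = 0.235 by edgeR) and -0.35 in cortex KO, and none passed. The coding transcript Top2a-201 held 42.2% of the Top2a counts at 4 months and 32.75% at 8 months in cortex WT, and 42.61% and 32.88% in cortex KO. Without sample 8, which was the lowest for Mki67 at 4 months, the hippocampus WT values over all transcripts were 0.07 for Mki67 and -0.09 for Top2a.

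The transcription factors of intermediate progenitors gave a narrow interval for Neurod1 and a wide one for Eomes. Neurod1 ranged from 15.0 to 27.4 CPM in hippocampus WT at 4 months (median 20.9) and from 18.3 to 22.3 CPM at 8 months (median 20.8). The groups overlapped, and the log2 fold change was -0.03 (-0.19 to 0.13, edgeR adjusted p = 0.868). It was 0.03 in hippocampus KO, 0.07 in cortex WT and 0.15 in cortex KO, where 7 of 8 samples at 8 months lay above the 4 months median (adjusted p = 0.202 by edgeR). Eomes spread far more between samples of the same group. In hippocampus WT it ranged from 0.68 to 3.79 CPM at 4 months (median 1.70) and from 0.15 to 3.59 CPM at 8 months (median 1.24), with a log2 fold change of -0.01 (-1.20 to 1.17). Without sample 8 the hippocampus WT values were 0.04 for Neurod1 and -0.14 for Eomes. In cortex WT it ranged from 3.16 to 8.40 CPM at 4 months (median 5.48) and from 0.058 to 6.76 CPM at 8 months (median 2.16). In that group 5 of the 8 older samples lay below every younger sample, and the log2 fold change of -1.16 did not pass the test (-2.30 to -0.02, adjusted p = 0.119 by edgeR). The cortex KO values were 0.18 to 6.39 CPM at 4 months and 0.79 to 4.31 CPM at 8 months, with a log2 fold change of -0.65 (adjusted p = 0.457 by edgeR).

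Dcx, the usual marker of neuroblasts and young neurons, did not pass the threshold of 0.01 in either tissue, although in cortex WT some other fits called it. In hippocampus WT it ranged from 12.9 to 36.3 CPM at 4 months (median 25.3) and from 25.9 to 29.8 CPM at 8 months (median 28.2). All 8 older samples lay inside the range of the younger ones and above their median. The log2 fold change was 0.19 (-0.12 to 0.50, edgeR adjusted p = 0.455) and 0.10 without sample 8, which was the lowest. In hippocampus KO it was 0.02 (-0.30 to 0.33) and in cortex KO 0.07 (-0.23 to 0.38). In cortex WT Dcx ranged from 24.5 to 55.9 CPM at 4 months (median 43.2) and from 47.9 to 65.8 CPM at 8 months (median 54.7). Here too every older sample exceeded the younger median and 3 exceeded all younger samples, yet the log2 fold change of 0.41 (0.10 to 0.71) had an adjusted p of 0.0391 by edgeR, above the threshold of 0.01. With the long-transcript index as a covariate it was 0.64 with an adjusted p of 4.72e-05 by edgeR, with the olfactory bulb index described below 0.53 (0.00953), and with only the groups compared 0.41 (0.00986). The long-transcript index itself had a median of 1.38 at 4 months and 1.21 at 8 months in cortex WT. Stmn1 ranged from 226 to 500.5 CPM in hippocampus WT at 4 months (median 269) and from 224 to 319 CPM at 8 months (median 266). The groups overlapped and the log2 fold change was -0.17 (-0.36 to 0.01), or -0.03 without sample 8, which was the highest, against 0.14 in cortex WT (-0.04 to 0.32). In KO animals the Stmn1 values were 0.08 in hippocampus and 0.15 in cortex. Igfbpl1, an insulin-like growth factor binding protein family gene of young neurons, ranged from 0.91 to 5.17 CPM in hippocampus WT at 4 months (median 2.67) and from 0.365 to 3.68 CPM at 8 months (median 2.19). Its log2 fold change of -0.50 there (-1.28 to 0.27) and of -0.90 in cortex WT (-1.71 to -0.09, edgeR adjusted p = 0.0851) did not pass, nor did the KO values of -0.27 in hippocampus and -0.48 in cortex. Without sample 8 the Igfbpl1 value in hippocampus WT was -0.61.

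The SoxC factors carried the changes with age that passed, apart from that of Draxin in cortex WT. Sox11, which with Sox4 drives the expression of early neuronal genes such as Dcx, fell in WT animals in both tissues. In hippocampus WT it ranged from 22.4 to 37.8 CPM at 4 months (median 29.9, mean 29.6 ± 4.49 SD, n = 8) and from 18.4 to 27.3 CPM at 8 months (median 22.1, mean 22.7 ± 2.81). The ranges overlapped, with 5 of 8 older samples below every younger one and all 8 below the younger median. The log2 fold change was -0.38 (SE 0.098, edgeR adjusted p = 0.00444). Without sample 8, which was the highest at 4 months, it was -0.32 and no longer passed (adjusted p = 0.0150 by edgeR). The call was also lost with only the groups compared (adjusted p = 0.0211 by edgeR) and with limma on log2(TPM + 0.1) (adjusted p = 0.0109). In cortex WT Sox11 ranged from 21.3 to 38.6 CPM at 4 months (median 33.2) and from 16.9 to 29.1 CPM at 8 months (median 25.9), with a log2 fold change of -0.38 (SE 0.098, edgeR adjusted p = 0.00211), which missed the threshold with only the groups compared (adjusted p = 0.0106). In KO animals the sign was the other way. Hippocampus KO samples ranged from 21.3 to 27.8 CPM at 4 months (median 23.0) and from 21.8 to 33.6 CPM at 8 months (median 26.1), a log2 fold change of 0.17 (-0.03 to 0.36, adjusted p = 0.302 by edgeR). Cortex KO samples ranged from 22.2 to 36.3 CPM and from 24.3 to 32.8 CPM, with a log2 fold change of 0.06 (-0.14 to 0.26).

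Sox4 fell in the cortex of both genotypes. Cortex WT samples ranged from 42.4 to 53.5 CPM at 4 months (median 46.6, mean 47.4 ± 4.43 SD) and from 28.3 to 42.0 CPM at 8 months (median 36.3, mean 35.5 ± 4.26). These groups did not overlap, and the log2 fold change was -0.42 (SE 0.071, edgeR adjusted p = 7.96e-06). Cortex KO samples ranged from 37.1 to 50.6 CPM at 4 months (median 44.1) and from 33.7 to 39.0 CPM at 8 months (median 35.3), a log2 fold change of -0.26 (SE 0.071, adjusted p = 0.00843 by edgeR). This call was lost without a filter on low counts, with the first library alone and with coding transcripts only (adjusted p between 0.0107 and 0.0140 by edgeR). There 5 of 8 older samples lay below all younger ones. In hippocampus WT Sox4 ranged from 29.8 to 51.1 CPM at 4 months (median 31.7) and from 27.0 to 30.6 CPM at 8 months (median 28.9). Although 6 of 8 older samples lay below every younger one, the log2 fold change of -0.25 had an adjusted p of 0.0113 by edgeR, just above the threshold, and without sample 8 it was -0.15 with an adjusted p of 0.0771. Hippocampus KO samples ranged from 28.8 to 35.8 CPM and from 28.1 to 31.5 CPM, with a log2 fold change of -0.07 (-0.21 to 0.08).

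Draxin, a secreted axon guidance protein of the developing brain, fell in the cortex of WT animals. In cortex WT it ranged from 0.78 to 1.42 CPM at 4 months (median 0.93) and from 0.18 to 0.94 CPM at 8 months (median 0.57), and 6 of 8 older samples lay below every younger one. The log2 fold change was -0.84 (SE 0.22, edgeR adjusted p = 0.00265). The call was lost with the second library alone (adjusted p = 0.0514), with only the groups compared (0.0216) and with the olfactory bulb index as a covariate (0.0111), all by edgeR. In hippocampus WT it ranged from 0.72 to 1.38 CPM at 4 months (median 1.11) and from 0.46 to 1.10 CPM at 8 months (median 0.67), with a log2 fold change of -0.67 (SE 0.22, adjusted p = 0.0287 by edgeR). Hippocampus KO samples lay at 0.75 to 1.48 CPM (median 1.04) and 0.49 to 1.31 CPM (median 0.58), with 7 of 8 older samples below every younger one and a log2 fold change of -0.64 (SE 0.22, adjusted p = 0.0520 by edgeR). The remaining older sample was sample 77, at 1.31 CPM with the next highest at 0.693 CPM, and no fit left this sample out. In cortex KO the values were 0.44 to 0.97 CPM (median 0.55) and 0.46 to 0.88 CPM (median 0.63), and the log2 fold change was -0.06 (-0.50 to 0.39). In tissue RNA, fewer cells that express a gene and less of its RNA per cell cannot be told apart.

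**Figure D2:**
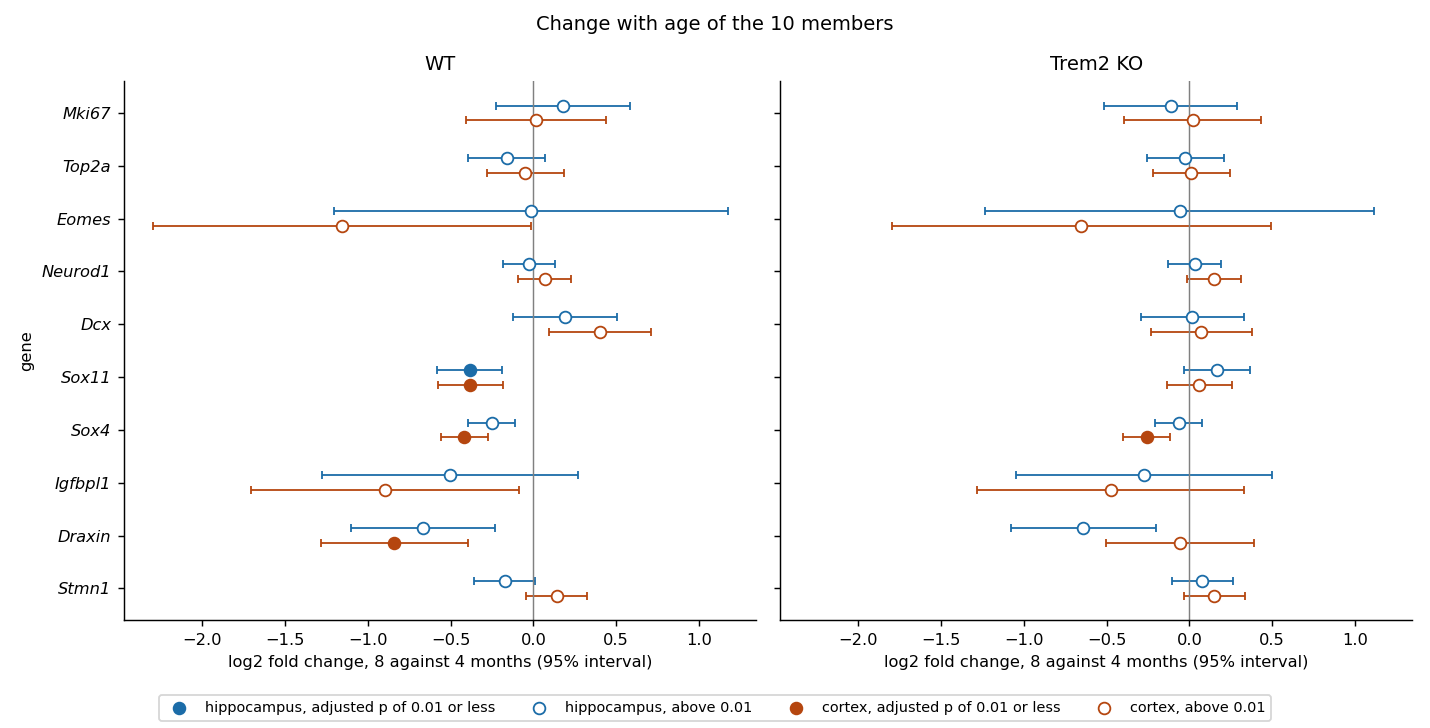
Log2 fold change at 8 against 4 months (horizontal axis, with 95% intervals) of each member in WT (left) and Trem2 KO (right), in hippocampus (blue) and cortex (orange). Filled circles passed an adjusted p of 0.01: Sox11 in both WT tissues at -0.38, Sox4 in WT cortex at -0.42 and KO cortex at -0.26, and Draxin in WT cortex at -0.84.

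Among the 10 members, 1 was called lower with age in hippocampus WT (Sox11) and none higher, where 7.27% of all 17582 genes were called in either direction and 4.75% lower. In cortex WT 3 were called lower (Sox11, Sox4 and Draxin) and none higher, against 18.4% of all genes in either direction and 12% lower. No member was called in hippocampus KO, where 3.5% of all genes were, and DESeq2 called 0. There 1 member had an unadjusted p under 0.05 by edgeR (Draxin), against 4163 of the 17582 genes. In cortex KO 1 member was called lower (Sox4), against 7.49% of all genes in either direction and 4.73% lower. The median log2 fold change of the members was -0.17 in hippocampus WT and -0.21 in cortex WT, beside -0.01 and 0.01 over all genes, and -0.04 and 0.02 in hippocampus and cortex KO, beside -0.001 and 0.002 over all genes. Without sample 8 the members' median in hippocampus WT was -0.11. Neither Mki67 and Top2a nor Eomes, Neurod1 and Dcx were among the members called with age.

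The change with age was not shown to differ between the tissues for any member. In the test of tissue by age in WT no member was called by edgeR, against 0.683% of all genes, and DESeq2 called 0. By edgeR 1 member had an unadjusted p under 0.05 (Stmn1), against 3391 of the 17582 genes. For Stmn1 the change in hippocampus minus that in cortex was -0.31 on the log2 scale (-0.57 to -0.05, adjusted p = 0.163 by edgeR), and -0.17 without sample 8. For Sox11 the difference between hippocampus and cortex was -0.0037 (-0.28 to 0.27), for Sox4 0.17 (-0.04 to 0.37), for Draxin 0.17 (-0.45 to 0.79) and for Dcx -0.21 (-0.65 to 0.22). Without sample 8 these were 0.05 for Sox11, 0.27 for Sox4 (adjusted p = 0.0578 by edgeR), 0.16 for Draxin and -0.31 for Dcx. The intervals were widest for Eomes (-0.50 to 2.79) and Igfbpl1 (-0.72 to 1.51), the members that spread most between samples. In KO animals edgeR called 0 members and 0% of all genes for tissue by age, and DESeq2 called 0. No member had an unadjusted p under 0.05 by edgeR there, against 1350 of the 17582 genes. The KO differences were 0.11 for Sox11 (-0.17 to 0.38), 0.19 for Sox4 (-0.01 to 0.40) and -0.59 for Draxin (-1.21 to 0.04).

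Sox11 came closest to a change with age that differed between the genotypes. In hippocampus its change with age was 0.55 higher on the log2 scale in KO than in WT (interval 0.27 to 0.83, edgeR adjusted p = 0.0178), which missed the threshold of 0.01, and DESeq2 gave an adjusted p of 0.00748. Without sample 8 it was 0.49 (adjusted p = 0.0453 by edgeR). In cortex the difference was 0.44 (0.16 to 0.72, adjusted p = 0.0574 by edgeR). No member was called for genotype by age in hippocampus by edgeR, against 0.734% of all genes, and DESeq2 called 1. By edgeR 1 member had an unadjusted p under 0.05 (Sox11), against 3026 of the 17582 genes. In cortex edgeR and DESeq2 each called 0 members, against 1.59% of all genes by edgeR. There 2 members had an unadjusted p under 0.05 by edgeR (Sox11 and Draxin), against 2637 of the 17582 genes. The Draxin difference in cortex was 0.78 (0.16 to 1.41, adjusted p = 0.179 by edgeR). The 3-way term of genotype, tissue and age called 0 members by edgeR and by DESeq2 and 0% of all genes by edgeR. No member had an unadjusted p under 0.05 by edgeR for this term, against 1229 of the 17582 genes.

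Within each age, no member was called between KO and WT. At 4 months Sox11 was the member with the smallest p in hippocampus, where WT samples ranged from 22.4 to 37.8 CPM and KO samples from 21.3 to 27.8 CPM. The log2 difference of KO against WT was -0.31 (-0.51 to -0.12, edgeR adjusted p = 0.0431), or -0.25 without sample 8 (adjusted p = 0.120 by edgeR). In cortex at 4 months it was again -0.31 (-0.51 to -0.12, adjusted p = 0.0247 by edgeR), with Draxin at -0.63 (-1.06 to -0.19, adjusted p = 0.0475). At 8 months the Sox11 difference was 0.24 in hippocampus (0.04 to 0.43, adjusted p = 0.839) and 0.13 in cortex (-0.07 to 0.33) by edgeR. The age and genotype comparisons of Sox11 share the WT samples of 4 months. In hippocampus edgeR called 2.42% of all genes at 4 months and 0.0114% at 8 months. There 3 members (Sox11, Sox4 and Stmn1) and then 1 (Sox11) had an unadjusted p under 0.05. Of the 17582 genes, 3457 and then 1006 did. Without sample 8 only 1 member was under 0.05 at 4 months, and the differences of Sox4 and Stmn1 went from -0.14 and -0.25 to -0.04 and -0.11. In cortex the shares were 6.51% and 0.0228%, with 2 members (Sox11 and Draxin) and then 0 at an unadjusted p under 0.05. Of the 17582 genes, 4332 and then 890 were under 0.05 there. DESeq2 called 0 members in all 4 comparisons.

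Over both genotypes and ages, 7 of the 10 members differed between the tissues, against 59.2% of all genes in either direction, 32.1% higher and 27.2% lower in hippocampus. Mki67, Neurod1 and Igfbpl1 were higher in hippocampus, by 0.77 (SE 0.10), 0.55 (SE 0.040) and 0.73 (SE 0.20) on the log2 scale, with edgeR adjusted p of 1.58e-09, 2.38e-19 and 9.92e-04. Stmn1, Dcx, Eomes and Sox4 were lower in hippocampus, with log2 differences of -1.33 (SE 0.047), -0.87 (SE 0.078), -0.83 (SE 0.29) and -0.39 (SE 0.036). The lowest cortex sample of Stmn1, at 575 CPM, lay above the highest hippocampus sample, at 500.5 CPM. Neurod1 ranged from 15.0 to 27.4 CPM in hippocampus and from 11.1 to 18.9 CPM in cortex, so the tissues overlapped at their edges. The Eomes call was near the threshold (adjusted p = 0.00992 by edgeR, and 0.0132 without sample 8), and the ranges of 0.15 to 6.14 CPM in hippocampus and 0.058 to 8.40 CPM in cortex overlapped nearly throughout. Sox11, Top2a and Draxin were not called, with log2 differences of -0.13, 0.05 and 0.29, although Sox11 passed without sample 8 (adjusted p = 0.00812 by edgeR). With limma voom Igfbpl1 was not called (adjusted p = 0.0227), and Eomes lost its call also without a filter, with the second library alone, with coding transcripts only, with limma voom and with limma on log2(TPM + 0.1) (adjusted p between 0.0102 and 0.0342). Draxin was called by limma voom (adjusted p = 0.00839). DESeq2 also called 7 members.

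The spread between samples was itself uneven. In hippocampus WT the SD of log2 CPM of Dcx was 0.51 at 4 months and 0.06 at 8 months, and that of Mki67 was 0.61 and 0.14, while the median over all genes tested was 0.24 and 0.12. Without sample 8 the 4 months values were 0.41 for Dcx, 0.45 for Mki67 and 0.18 over all genes. In cortex KO the SD of Dcx was 0.61 at 4 months and 0.16 at 8 months, beside 0.18 and 0.13 over all genes. For Eomes it went the other way in cortex WT, from 0.53 to 2.10. Technical libraries differed much less than samples for the well expressed members: the SD of 1 library about its sample was 0.016 for Stmn1 and 0.053 for Dcx, against 0.18 and 0.34 between samples within groups. For Draxin, the scarcest member, it was 0.35 against 0.45.

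The levels of the members were weakly related from sample to sample. After subtraction of group means, the 45 pairs of members had a median Pearson r of 0.04 over the 32 hippocampus samples (range -0.57 to 0.79) and of 0.19 over the 32 cortex samples (range -0.71 to 0.69). These values are descriptions, since samples may share conditions of processing and RNA properties. The highest r in hippocampus was that of Igfbpl1 and Eomes (0.79, and 0.79 without sample 8). Dcx and Mki67 had an r of 0.63 (0.46 without sample 8), Sox11 and Top2a 0.61 (0.52) and Sox11 and Sox4 0.54 (0.39). Sox4 and Stmn1 had an r of 0.58 that rested on sample 8, without which it was 0.04. In cortex Dcx and Mki67 had the highest r (0.69), while Dcx and Stmn1 moved against each other (-0.71). Dcx and Mki67 followed the long-transcript index, with r of 0.71 and 0.79 in hippocampus (0.51 and 0.71 without sample 8) and 0.71 and 0.54 in cortex. Stmn1 and the index had an r of -0.75 in hippocampus (-0.50 without sample 8) and -0.79 in cortex. The count-weighted transcript length is 8769 bases for Dcx, 10075 for Mki67 and 1058 for Stmn1. Among the other members, Sox11, at 8311 bases, had an r with the index of -0.12 in hippocampus (0.36 without sample 8) and 0.37 in cortex. Neurod1, at 2729 bases, had an r with it of -0.18 in hippocampus (0.48 without sample 8) and 0.66 in cortex. The part of RNA quality in the spread of Dcx was not tested.

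Eomes followed another measure. Samples with much Eomes in cortex had much RNA of genes typical of the olfactory bulb, where mitral and tufted cells express Eomes in the adult. A list of 8 such genes (Cdhr1, Doc2g, Tbx21, Lbhd2, Ms4a15, Th, Scgn and Frmd7) was written after the pattern had been seen, so it is a description only. Frmd7, Doc2g, Ms4a15 and Th were themselves among the 6 genes most correlated with Eomes in these cortex samples. A high r of the list with Eomes therefore follows in part from its choice. The mean log2 CPM of the list had an r of 0.96 with Eomes over the 32 cortex samples after subtraction of group means, and of 0.59 over the 32 hippocampus samples. Its summed level ranged from 40.3 to 83.7 TPM in cortex WT at 4 months (median 65.4) and from 12.3 to 80.2 TPM at 8 months (median 36.5). In cortex KO it ranged from 13.0 to 71.5 TPM at 4 months and from 22.4 to 52.8 TPM at 8 months, and in hippocampus from 13.6 to 44.6 TPM over all groups. The median of Lbhd2 rose with age in cortex WT, from 0.87 to 1.13 CPM, while those of the other genes of the list fell. Tbx21, which marks the same projection neurons, reached 1.94 CPM in cortex and 0.29 CPM in hippocampus. Over the same cortex samples Sox4 and Igfbpl1 had an r of 0.69 and 0.57 with the list. Lbhd2 of the list was itself the gene most correlated with Igfbpl1 in cortex (r of 0.77) and with Eomes in hippocampus (0.90). The r of the list with Igfbpl1 in cortex and with Eomes in hippocampus therefore also follows in part from its choice. With the list's mean as a covariate, Sox4 in cortex WT kept its call (log2 fold change -0.34, edgeR adjusted p = 2.02e-04), whereas Draxin there had an adjusted p of 0.0111 by edgeR. The part of olfactory bulb tissue in its values was not tested.

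**Figure D3:**
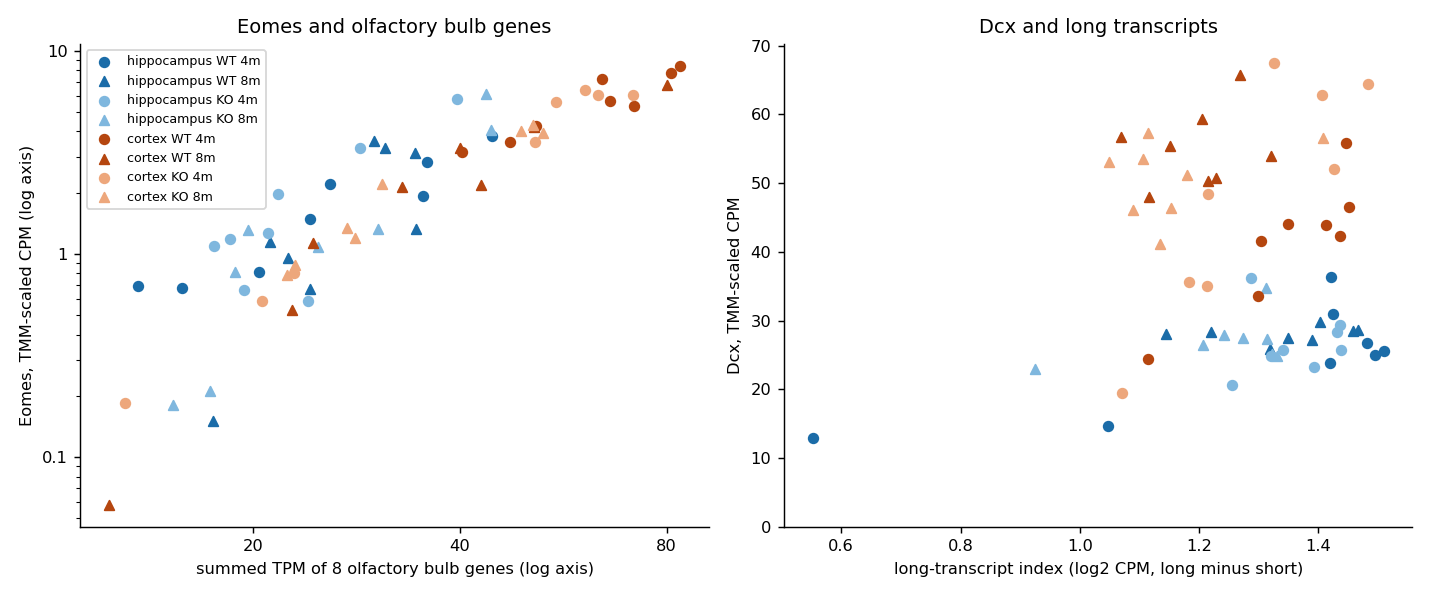
Left, Eomes in CPM against the summed TPM of 8 olfactory bulb genes (both axes logarithmic) in 64 samples, where the cortex samples reach from 0.058 to 8.40 CPM along the list. Right, Dcx in CPM against the long-transcript index, where sample 8 of hippocampus WT at 4 months is alone at 0.55 with 12.9 CPM; circles are 4 months and triangles 8 months, with hippocampus in blue and cortex in orange.

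The genes whose levels were most like the mean of the standardized members over the 32 hippocampus samples were Alpk2 (Pearson r of 0.69), Ugdh (0.67), Utp11, Dmc1, Xkr6, Nras, Kif23 (0.62) and Hacd1 (0.62). After subtraction of group means they were Siglech (0.70), Inhba (0.69), Ccdc148, Rdh16, Idi1, Gm19203, Tigd4 and Xkr6 (0.63). Only Xkr6 stood in both sets of 8. The mean itself followed Top2a and Sox11 (r of 0.75 and 0.71 over samples) and hardly Dcx and Mki67 (0.02 and 0.07), with sample 8 included.

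Other genes of the pathway were taken from lists of known genes that hold none of the 10 members. Over all genes, edgeR called 7.27% with age in hippocampus WT, 3.5% in hippocampus KO, 18.4% in cortex WT and 7.49% in cortex KO. Of 28 cell division genes, none was called with age in hippocampus WT by edgeR, with a median log2 fold change of -0.13 beside -0.01 over all genes, and none in hippocampus KO or cortex KO. In cortex WT 1 was called higher, the centromere motor gene Cenpe (0.86, SE 0.20, adjusted p = 7.33e-04 by edgeR). The most abundant of this list, the replication clamp gene Pcna, had log2 fold changes between -0.03 and 0.07, the spindle gene Prc1 between -0.11 and 0.29 and the helicase gene Mcm6 between -0.22 and 0.05, and none of these passed. Of 15 genes of stem cells and early progenitors, 3 fell in hippocampus WT, 3 in hippocampus KO, 4 in cortex WT and 4 in cortex KO, and none rose. Nes, the intermediate filament gene of stem cells, fell in all 4 combinations, by between 0.66 and 0.85 on the log2 scale, and so did Prom1, by between 0.66 and 1.16. Fabp7, a fatty acid binding protein gene of radial glia, fell in hippocampus WT by 0.60 (adjusted p = 0.00138 by edgeR), and Hopx and Id4 did not pass in any combination. Nes and Prom1 are also expressed outside the lineage, Nes by vessel cells. Nes, Prom1 and Cenpe were named after their values had been seen.

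Of 23 further genes of immature neurons, 1 rose and 1 fell in hippocampus WT, none was called in hippocampus KO, 4 fell in cortex WT and 3 fell in cortex KO. The share of all genes called in either direction was 7.27%, 3.5%, 18.4% and 7.49% in that order. The median log2 fold changes of the list were -0.08, 0.01, -0.09 and -0.07 in the same order. Dpysl5, a collapsin response mediator of growing axons, fell in hippocampus WT by 0.30, in cortex WT by 0.28 and in cortex KO by 0.24, and its relative Dpysl3 fell in cortex WT by 0.25 and in cortex KO by 0.35. The gene that rose was Neurod6 (0.32, SE 0.065, adjusted p = 3.01e-04 by edgeR), a transcription factor gene of excitatory neurons that the list of CA field genes also holds. These 3 genes were named after their values had been seen. The most abundant genes of the list, Tuba1a, Nnat and Stmn2, were not called in any combination, with log2 fold changes between -0.26 and 0.24. None of the genes in these lists was called for tissue by age in WT or KO, beside 0.683% and 0% of all genes.

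**Figure D4:**
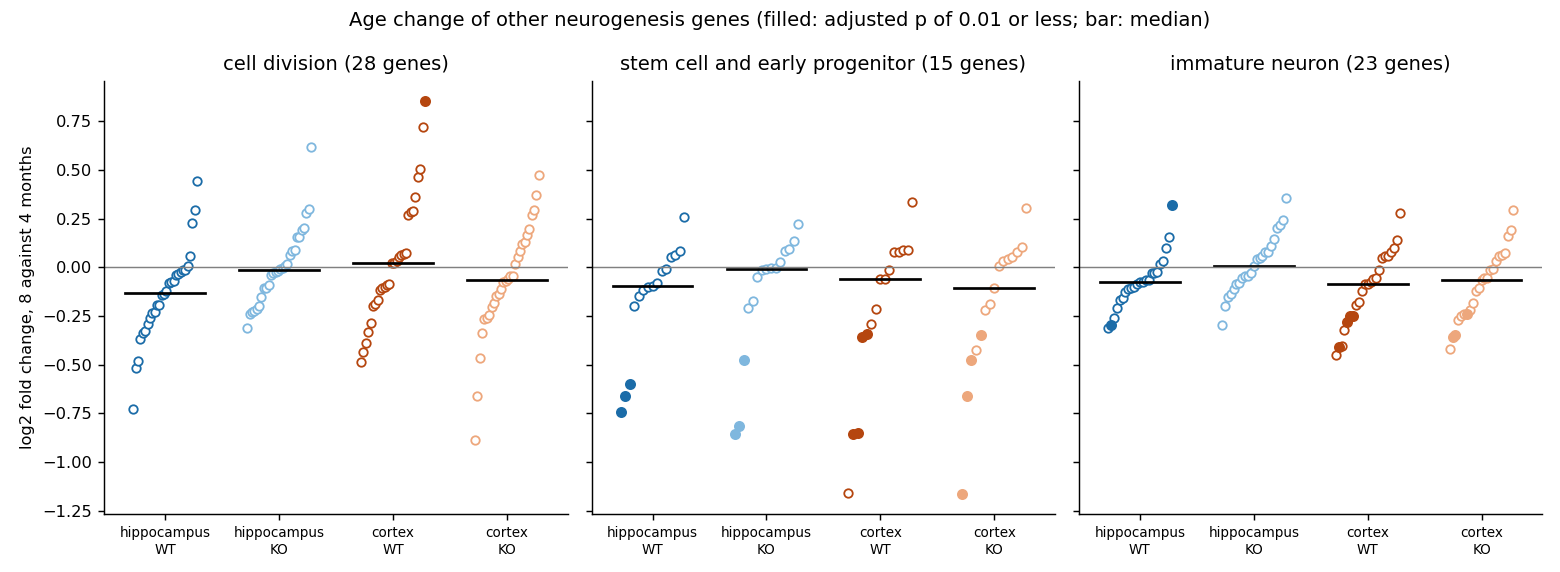
Log2 fold change at 8 against 4 months (vertical axis) of 28 cell division, 15 stem cell and early progenitor and 23 immature neuron genes in each tissue and genotype. Points are genes in order of their change, filled where the adjusted p was 0.01 or less, and bars are medians, which lie at -0.13, -0.09 and -0.08 in hippocampus WT.

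Vessel genes also fell with age, in both tissues and both genotypes. Of a list of 10 vessel and meningeal genes 6 fell with age in hippocampus WT, 4 in cortex WT, 5 in hippocampus KO and 5 in cortex KO, and none rose. Flt1, Cldn5, Pecam1 and Acta2 fell in every combination, Tagln in hippocampus WT and cortex KO, and Col1a1 in hippocampus only. Dcn, Lum, Col1a2 and Slc6a13 were called in none. These genes were named after their values had been seen. The summed level of the list went from 186 to 233 TPM at 4 months to 118 to 210 TPM at 8 months in hippocampus WT, and from 136 to 177 TPM to 101 to 127 TPM in cortex WT. In hippocampus KO it went from 164 to 243 TPM to 117 to 191 TPM, and in cortex KO from 126 to 160 TPM to 72.8 to 106 TPM. In cortex the ranges of the ages did not overlap in either genotype. The part of vessel and meningeal cells in the values of Sox4, Sox11, Draxin, Nes and Prom1 was not tested. The markers of other cells gave fewer calls. Over all genes, 7.27% were called with age in hippocampus WT, 18.4% in cortex WT, 3.5% in hippocampus KO and 7.49% in cortex KO. Of the lists, 12 dentate granule neuron genes had 1 higher with age in hippocampus WT and 2 in cortex WT, 14 striatal and subventricular neuroblast genes had 2 lower in cortex WT, and 12 genes of oligodendrocyte precursors and new oligodendrocytes had 1 lower in hippocampus WT and 2 in cortex WT. Of 12 choroid plexus and ependyma genes none was called with age by edgeR, and their summed level ranged from 153 to 10589 TPM over the hippocampus samples. Of 5 blood genes none was called either. Among 11 microglia genes 2 were higher at 8 months in cortex WT, 1 in hippocampus KO and 2 in cortex KO, and among 7 Cajal-Retzius cell genes 1 fell in hippocampus WT and 2 in each other combination. Of 11 genes of the CA fields 2 rose and 1 fell in hippocampus WT, and of 12 cortical layer genes 1 fell in each WT tissue.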

How the data were processed

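RNA-seq libraries of polyadenylated, strand-specific RNA were measured, 2 technical libraries per sample. The authors deposited, per transcript, estimated counts and TPM values made with kallisto 0.42.4 on GRCm38 according to the submitters' processing notes. The deposited estimated counts are not normalized, and the deposited TPM values are scaled by transcript length and library. Estimated counts split reads between transcripts by a model, so values of scarce genes can move with the annotation. Transcripts were paired with genes through GENCODE M21, which left out 2167 of 88198 transcripts and kept 99.02% of counts. Counts were summed over the transcripts of each gene and over both libraries, which held between 13181116 and 38280800 counts each, and rounded. Genes with at least 5 counts in at least 47% of samples were kept. edgeR 4.0.16 (R 4.3.3) fitted 8 groups to 64 samples with TMM scaling and its two-sided quasi-likelihood test, Benjamini-Hochberg adjusted over 17582 genes and called at 0.01. The edgeR fit was checked on simulated counts, and the other steps were not. Known changes were set only in hippocampus WT at 8 months, in genes with higher mean counts than Draxin. A floor of 3 counts corresponds to 0.0458 to 0.104 CPM and covers counting error only.

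Alternatives used limma 3.58.1 and DESeq2 1.42.0, other scalings, filters and thresholds, single libraries, TPM and a paired block. The members and gene lists were chosen with earlier results of these data known. The olfactory bulb list and 4 alternatives (without sample 8, each index as a covariate, coding transcripts only) were added after the values had been seen. Outside the members, the text names the 3 genes of each pathway list with the highest mean TPM, since none was called for tissue by age, and the 8 genes most like the members' mean, before and after subtraction of group means. Sequences came from RefSeq. The authors' own test results were not used here.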

Additional observations from a re-analysis of the deposited data

Results flagged for a closer look

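The 80 combinations of a member and a group were examined for a sample apart from its group by Dixon's criterion (0.526 for 8 samples), which chance meets in about 1 in 20 groups, and 7 met it. Of these, 3 were high values of sample 77 of hippocampus KO at 8 months, with Dcx at 34.7 CPM (next highest 27.9), Top2a at 5.49 CPM (4.23) and Draxin at 1.31 CPM (0.693). Sample 8 of hippocampus WT at 4 months had 51.1 CPM of Sox4 (next highest 34.7) and 500.5 CPM of Stmn1 (350.9). Sox11 was low in sample 33 of cortex WT at 4 months, at 21.3 CPM (next lowest 31.7), and high in sample 47 of cortex KO at 4 months, at 36.3 CPM (next highest 27.5). No member was called for a difference of its change between tissues or genotypes by edgeR. The cause of these values was not tested.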

How the results depend on the processing

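Of 208 counts of members called over the comparisons and alternatives, 184 equalled the reported count, 12 differed by up to 1.5 times and 12 by more. In hippocampus WT with age, the count of 1 became 3 at an adjusted p of 0.05, 2 with the olfactory bulb index as a covariate, and 0 with only the groups compared, with limma on log2(TPM + 0.1) and without sample 8. In cortex KO with age, the count of 1 became 0 without a filter, with the first library alone and with coding transcripts only. The count of 0 for genotype by age in hippocampus became 1 with DESeq2 and at 0.05, and the counts of 0 for KO against WT at 4 months became 1 in hippocampus and 2 in cortex at 0.05. Within 1.5 times, the count of 3 in cortex WT became 4 at 0.05 and with the long-transcript index as a covariate, and 2 with the second library alone and with only the groups compared, and the count of 7 for hippocampus against cortex became 6, 8 or 9 under 8 alternatives. No log2 fold change of a called member changed sign. Draxin in cortex WT lost its call with the second library alone (-0.66, adjusted p = 0.0514 by edgeR), and Sox11 and Draxin there with only the groups compared (adjusted p = 0.0106 and 0.0216), where Dcx passed (0.41, adjusted p = 0.00986). Other causes were not tested. Whether sample numbers that differ by 32 pair the tissues of a mouse is not settled. Deviations of the 32 pairs had a mean correlation of 0.0201 and 2 exceeded 0.1. This cannot decide the question, because other pairings were not compared. With this pairing as a replicate block in limma voom, no count differed from that of limma voom without it, and Igfbpl1 in hippocampus against cortex was 0.55 (adjusted p = 0.0217). Across all genes, the call count with age in hippocampus WT was 1279, against 2595 at 0.05 and 451 with only the groups compared. Fits of only the groups compared were not run for hippocampus against cortex and for the 3-way term. Draxin, Eomes, Igfbpl1 and Mki67 are limited by low counts.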
